A study of Mus musculus with 32 samples.

Results

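Direct-pathway projection neurons of the striatum, the output cells that carry the D1 dopamine receptor, were followed through 9 genes: Drd1, Tac1, Pdyn, Chrm4, Isl1, Ebf1, Eya1, Sfxn1 and Slc35d3. The genes were chosen as known markers of these cells, with earlier results of these data known, and they are 9 of the 55415 gene features in the count tables. The tissue was bulk striatum from 32 mice, 8 in each of 4 groups, and each library came from 1 animal. YAC128 mice carry human HTT with an expanded polyglutamine tract on a yeast artificial chromosome, and are a model of Huntington disease. In the AON12.1 group, YAC128 mice had AON12.1, an antisense oligonucleotide aimed, by the title of the series, at the caspase-6 cleavage site of HTT. In the scrambled group, YAC128 mice had a scrambled oligonucleotide in its place. In the YAC128 aCSF group, YAC128 mice had only the artificial cerebrospinal fluid (aCSF) that served as vehicle, and in the WT aCSF group wild-type littermates had the same vehicle. All animals, on a B6 background, had a lateral ventricle cannulated and 10 µL injected 3 times, first at about 6 months of age and then 2 and 4 weeks after surgery. Oligonucleotides were given at 500 µg per injection, and every mouse was killed at 12 months, directly after an MRI scan.

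Striatal projection neurons form a direct and an indirect pathway. Direct-pathway cells project to the substantia nigra and the inner pallidum, respond to dopamine through the D1 receptor, which couples to the G protein Golf and raises cAMP, and release substance P and dynorphin besides GABA. Indirect-pathway cells project to the outer pallidum and carry the D2 dopamine receptor, the adenosine receptor encoded by Adora2a and enkephalin. In Huntington disease both kinds of cell are affected, and loss of enkephalin and other indirect-pathway markers is the better known early change.

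Libraries were made by priming polyadenylated RNA with barcoded oligo-dT and were counted per gene. They held 658934 to 1419313 gene counts, so a level of 1 CPM (counts scaled to a common library total, here after adjustment by the trimmed mean of M values, TMM) is about a single count. Levels are compared between groups and not between genes. The transgene feature was at 94.4 CPM or more in each YAC128 library and at 7.06 CPM or less in each WT library, so genotypes followed the labels. Reads outside annotated genes made up 16.3% to 33.7% of a library, on average 23.8% in AON12.1, 22.1% in scrambled, 25.7% in YAC128 aCSF and 19.5% in WT aCSF libraries. Within groups this share went with the members only weakly, with r between -0.10 and 0.22 over 32 libraries. In scrambled library 5, 12 cortical neuron markers summed to 1721 CPM, above the next highest library of any group at 958 CPM. That library was the lowest of its group for Drd1, Tac1, Pdyn, Isl1 and Ebf1. The differences of AON12.1 from scrambled for Drd1, Tac1, Pdyn and Isl1 and most correlations between genes are given with and without it. Scrambled values in the other comparisons include it unless stated. YAC128 aCSF library 4 stood apart in choroid plexus markers, at 3396 CPM, and YAC128 aCSF library 2 in thalamus and hypothalamus markers, at 3007 CPM. Contributions of tissue taken beside the striatum to the results below were not tested beyond leaving these libraries out and fitting marker covariates. The covariates were mean log2 levels of the tested cortical markers and of the choroid plexus markers. Thalamus and hypothalamus markers were not among them.

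7 of the 9 genes had enough counts to be tested, among 10679 genes that passed the same filter. Chrm4, which encodes the M4 muscarinic receptor, a Gi/o-coupled receptor that opposes D1 signalling in these cells, had 3 counts in all, 1 in an AON12.1, 1 in a YAC128 aCSF and 1 in a WT aCSF library. Eya1, a transcription coactivator and phosphatase, had 87 counts spread over 29 libraries, at most 5 in a library. Its mean level was 3.41 ± 1.44 CPM in AON12.1, 3.12 ± 1.78 in scrambled, 2.89 ± 1.41 in YAC128 aCSF and 2.14 ± 1.86 in WT aCSF striatum (SD, n = 8 each). Neither gene was tested. Whether the annotation used for counting holds the 3′ end of Chrm4 was not checked. Its 3 counts are thus no measure of its expression.

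The 2 neuropeptide precursors were the members with the clearest group differences. Tac1, the precursor of substance P and neurokinin A, had a lowest, median and highest level of 650, 837 and 993 CPM in AON12.1 striatum, 349, 575 and 892 CPM in scrambled, 325, 620 and 689 CPM in YAC128 aCSF, and 513, 742 and 879 CPM in WT aCSF striatum. The groups overlapped, but all 8 AON12.1 libraries lay above the median of the scrambled group and above that of the YAC128 aCSF group, and 6 of them above the highest YAC128 aCSF library. Every YAC128 aCSF library, in turn, lay below the WT aCSF median. Pdyn, the precursor of the dynorphins, which act on the kappa opioid receptor, had a lowest, median and highest level of 138, 185 and 245 CPM in AON12.1, 70.0, 150 and 188 CPM in scrambled, 90.3, 149 and 183 CPM in YAC128 aCSF, and 126, 174 and 211 CPM in WT aCSF striatum. Its groups overlapped as well, with 7 of 8 AON12.1 libraries above the median of either other YAC128 group and 1 of 8 YAC128 aCSF libraries above the WT aCSF median. By mean level both precursors ran in the same order, AON12.1, WT aCSF, scrambled and YAC128 aCSF from high to low. For neither precursor did any 2 groups differ past the threshold (adjusted p below 0.05 over all tested genes in edgeR's quasi-likelihood test).

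Drd1, the D1 receptor itself, had a lowest, median and highest level of 91.6, 99.3 and 148 CPM in AON12.1, 48.7, 86.5 and 109 CPM in scrambled, 55.4, 95.1 and 119 CPM in YAC128 aCSF, and 61.2, 114 and 151 CPM in WT aCSF striatum. All 8 AON12.1 libraries exceeded the scrambled median and 7 exceeded the YAC128 aCSF median, while the WT aCSF libraries covered almost the whole range of the other groups. Slc35d3 belongs to the nucleotide-sugar transporter family and has been tied in mice to trafficking of the D1 receptor. Its lowest, median and highest levels were 22.6, 29.3 and 45.3 CPM in AON12.1, 15.9, 24.1 and 31.7 CPM in scrambled, 8.14, 23.0 and 39.9 CPM in YAC128 aCSF, and 16.3, 26.9 and 43.8 CPM in WT aCSF striatum, with wide overlap between all groups. Sfxn1, a mitochondrial serine transporter, had close means of 158.5 ± 21.9 CPM in AON12.1, 147 ± 22.8 in scrambled, 153 ± 26.3 in YAC128 aCSF and 162.5 ± 26.2 in WT aCSF striatum (SD, n = 8 each). Drd1 and Sfxn1 are neighbours in the genome. In GRCm38.p6 the 250 bases before a Drd1 start lie at chr13:54055659-54055908 on the minus strand, and those before the Sfxn1 start at chr13:54071595-54071844 on the plus strand. Within groups the levels of the pair went together only weakly, at r = 0.17 over 32 libraries, a description with no test.

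Of the 2 tested transcription factors, Isl1, a LIM-homeodomain factor needed for direct-pathway identity, was lowest in scrambled striatum. Its lowest, median and highest levels were 21.0, 33.8 and 45.3 CPM in AON12.1, 7.50, 24.7 and 35.8 CPM in scrambled, 22.7, 30.3 and 40.7 CPM in YAC128 aCSF, and 23.5, 27.0 and 40.7 CPM in WT aCSF striatum. The scrambled value of 7.50 CPM, from library 5, was 6 counts. Isl1 is also made by cholinergic interneurons, whose 7 markers summed to a median of 81.6 CPM in AON12.1 (range 66.4 to 101), 79.4 in scrambled (22.5 to 143), 103 in YAC128 aCSF (66.8 to 120) and 106.5 in WT aCSF striatum (63.6 to 132). None of those markers was at 0 in every library, and their part in the Isl1 level was not tested. Ebf1, a factor for differentiation of striatonigral neurons that blood vessel mural cells also make, had a lowest, median and highest level of 10.0, 18.2 and 37.2 CPM in AON12.1, 8.75, 14.0 and 27.5 CPM in scrambled, 10.3, 17.8 and 31.7 CPM in YAC128 aCSF, and 11.8, 14.4 and 31.0 CPM in WT aCSF striatum. The 10 mural and endothelial markers summed to 275 to 395 CPM in AON12.1, 300 to 366 in scrambled, 268 to 340 in YAC128 aCSF and 300 to 348 in WT aCSF libraries, none at 0 throughout, and their part in the Ebf1 level was not tested.

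As the D1 receptor signals through cAMP, the start regions of the members were searched for TGACG, the core of the cAMP response element, on both strands. Windows were the 250 bases before each start from RefSeq (GRCm38.p6), with an entry for 8 of the 9 genes and 11 windows. TGACG was found for 3 genes, Tac1, Isl1 and Slc35d3, and in 17.8% of 32851 mouse windows of that length. The full palindrome TGACGTCA, which contains it, was in 1.55% of windows and in none of the members'. The windows of Tac1 (chr6:7554811-7555060, plus strand) and Isl1 (chr13:116309689-116309938, minus strand), each with 2 matches, and of Pdyn (chr2:129699939-129700188, minus strand), with none, are printed 5′ to 3′ with each match, read on either strand, in capitals.
Tac1: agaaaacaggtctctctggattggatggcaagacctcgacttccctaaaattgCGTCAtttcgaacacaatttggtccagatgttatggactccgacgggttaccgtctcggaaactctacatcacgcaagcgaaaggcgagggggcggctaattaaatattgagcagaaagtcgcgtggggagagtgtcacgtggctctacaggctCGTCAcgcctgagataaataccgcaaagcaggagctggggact
Isl1: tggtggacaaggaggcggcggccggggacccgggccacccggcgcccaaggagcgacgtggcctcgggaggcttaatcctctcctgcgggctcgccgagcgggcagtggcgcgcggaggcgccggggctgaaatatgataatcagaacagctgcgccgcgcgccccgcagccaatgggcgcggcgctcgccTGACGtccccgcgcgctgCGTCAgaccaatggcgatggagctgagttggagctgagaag
Pdyn: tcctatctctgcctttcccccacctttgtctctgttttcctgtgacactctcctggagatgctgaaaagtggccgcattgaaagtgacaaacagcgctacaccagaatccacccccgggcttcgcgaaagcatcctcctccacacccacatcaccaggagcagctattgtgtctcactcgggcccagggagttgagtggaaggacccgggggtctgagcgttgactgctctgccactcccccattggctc
Matches began 197 and 43 bases before the Tac1 start and 59 and 41 bases before the Isl1 start, counted to the match's leftmost printed base. Pdyn, whose groups stood in the same order as those of Tac1, has no match in this window, and Isl1, whose groups stood in another order, has 2. A match is a run of letters and not evidence of binding.

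**Figure D1:**
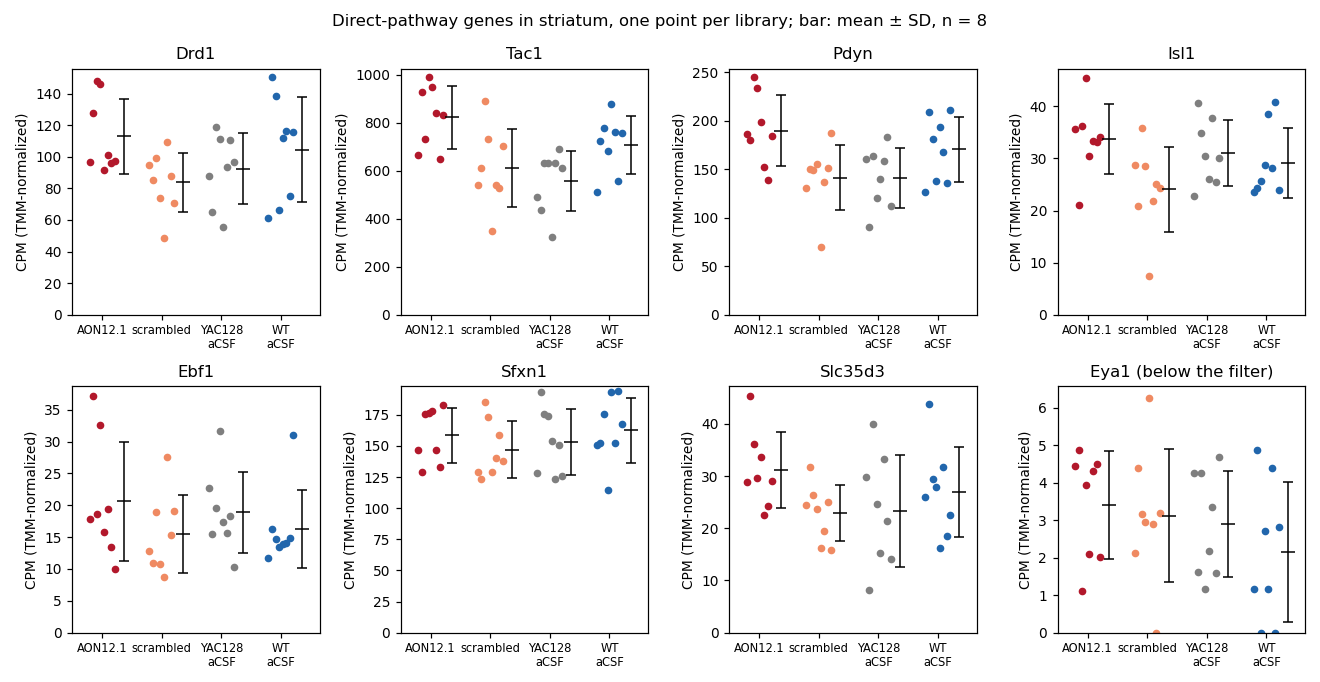
Level in CPM (linear axis) of Drd1, Tac1, Pdyn, Isl1, Ebf1, Sfxn1, Slc35d3 and Eya1 in each library, 1 panel a gene; points are animals and bars are mean ± SD (n = 8 per group). The AON12.1 points for Tac1 lie between 650 and 993 CPM, against 325 to 689 CPM for YAC128 aCSF, and the groups overlap in every panel.

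AON12.1 was first set against the scrambled oligonucleotide, given by the same surgery and at the same dose. All 7 tested members were higher with AON12.1, and none passed the threshold after adjustment. Across all genes 0.140% passed. Tac1 was 1.34-fold higher (95% interval 1.10 to 1.64, adjusted p = 0.447 by Benjamini-Hochberg from edgeR's quasi-likelihood test), Pdyn 1.34-fold (1.09 to 1.65, adjusted p = 0.470), Drd1 1.34-fold (1.05 to 1.70, adjusted p = 0.572) and Isl1 1.40-fold (1.09 to 1.80, adjusted p = 0.491). These 4 had an unadjusted p below 0.05 (0.00518, 0.00704, 0.0186 and 0.00906), against 3.39% of all genes that were higher at that p. Slc35d3 was 1.35-fold higher (0.989 to 1.83, adjusted p = 0.696), Ebf1 1.25-fold (0.883 to 1.78, adjusted p = 0.841) and Sfxn1 1.08-fold (0.922 to 1.26, adjusted p = 0.892). The median difference of the members was 0.42 on the log2 scale, against 0.01 for all tested genes, of which 51.8% had a fold change above 1. The members are markers of the same cells and were read in the same libraries, so they are not separate observations. Drd1, Tac1 and Pdyn varied together within groups, at r = 0.60 to 0.65 over 32 libraries. Mean r with the other members was 0.43 to 0.45 for them and 0.16 to 0.26 for Isl1, Ebf1, Sfxn1 and Slc35d3. With scrambled library 5 left out, this mean was 0.30 to 0.35 for Drd1, Tac1 and Pdyn. For the others it was then -0.0015 to 0.16, lowest for Isl1. Without scrambled library 5 the differences on the log2 scale were 0.34 for Drd1, 0.34 for Tac1, 0.32 for Pdyn and 0.37 for Isl1, in the same direction. Cortical excitatory neuron markers ran the other way in this comparison: 7 of the 8 tested were lower with AON12.1 than with scrambled, with a median log2 difference of -0.30, and none passed. Their sum over 12 genes ranged from 379 to 958 CPM in AON12.1 and from 443 to 1721 CPM in scrambled libraries. Rtn4rl2 was at 0 in all AON12.1 libraries. The part of cortical markers in the members' differences was not tested beyond leaving out library 5 and fitting the marker covariates.

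Against YAC128 aCSF all 7 tested members were again higher with AON12.1, as were 50.0% of all genes, and the peptide precursors were foremost. Tac1 was 1.48-fold higher (95% interval 1.21 to 1.81), a log2 difference of 0.56 ± 0.14 (SE) with an unadjusted p of 0.000354, and just missed the threshold (edgeR quasi-likelihood adjusted p = 0.0742). Of all genes 0.309% passed it. The call for Tac1 depended on the method. Its adjusted p was 0.0201 with DESeq2, 0.0404 with no filter on low counts and 0.0467 with the cortical and choroid plexus marker covariates. It was 0.0474 without AON12.1 library 7 and 0.0435 without scrambled library 5, and above 0.05 in the other omissions of a library, up to 0.216. Under the remaining alternatives it also stayed above 0.05, up to 0.555. The difference held a positive sign throughout, between 0.47 and 0.63 on the log2 scale. Pdyn was 1.35-fold higher (1.09 to 1.66, unadjusted p = 0.00603, adjusted p = 0.210), with 5 of 8 AON12.1 libraries above the highest YAC128 aCSF library. Tac1 and Pdyn were the only members with an unadjusted p below 0.05, where 6.53% of all genes were higher at that p. Slc35d3 was 1.33-fold higher (0.982 to 1.81, adjusted p = 0.464) and Drd1 1.22-fold (0.961 to 1.54, adjusted p = 0.539). For Isl1, Ebf1 and Sfxn1 the folds were 1.09 (0.857 to 1.38), 1.08 (0.768 to 1.52) and 1.03 (0.883 to 1.21). The members' median log2 difference was 0.28, against 8.9e-05 for all genes. Without the 4 libraries that stood apart (scrambled 5, YAC128 aCSF 2 and 4, and WT aCSF 1), an omission chosen after seeing the data, Tac1 was 0.55 higher on the log2 scale (adjusted p = 0.0927 in edgeR), Pdyn 0.31 and Drd1 0.26. Markers of neighbouring tissue also differed in level here, none past the threshold. All 7 tested thalamus and hypothalamus markers were lower with AON12.1 (median log2 difference -1.09), their 10 genes summing to 136 to 851 CPM in AON12.1 and 214 to 3007 CPM in YAC128 aCSF libraries. Both tested choroid plexus markers were lower too (median -1.89), the 8 genes of that list summing to 31.1 to 198 CPM in AON12.1 and 31.0 to 3396 CPM in YAC128 aCSF libraries, while 6 of 8 tested cortical markers were higher (median 0.25). The part of these tissues in the members' differences was not tested further. Both comparisons use the same AON12.1 libraries, so their directions are not independent of each other.

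**Figure D2:**
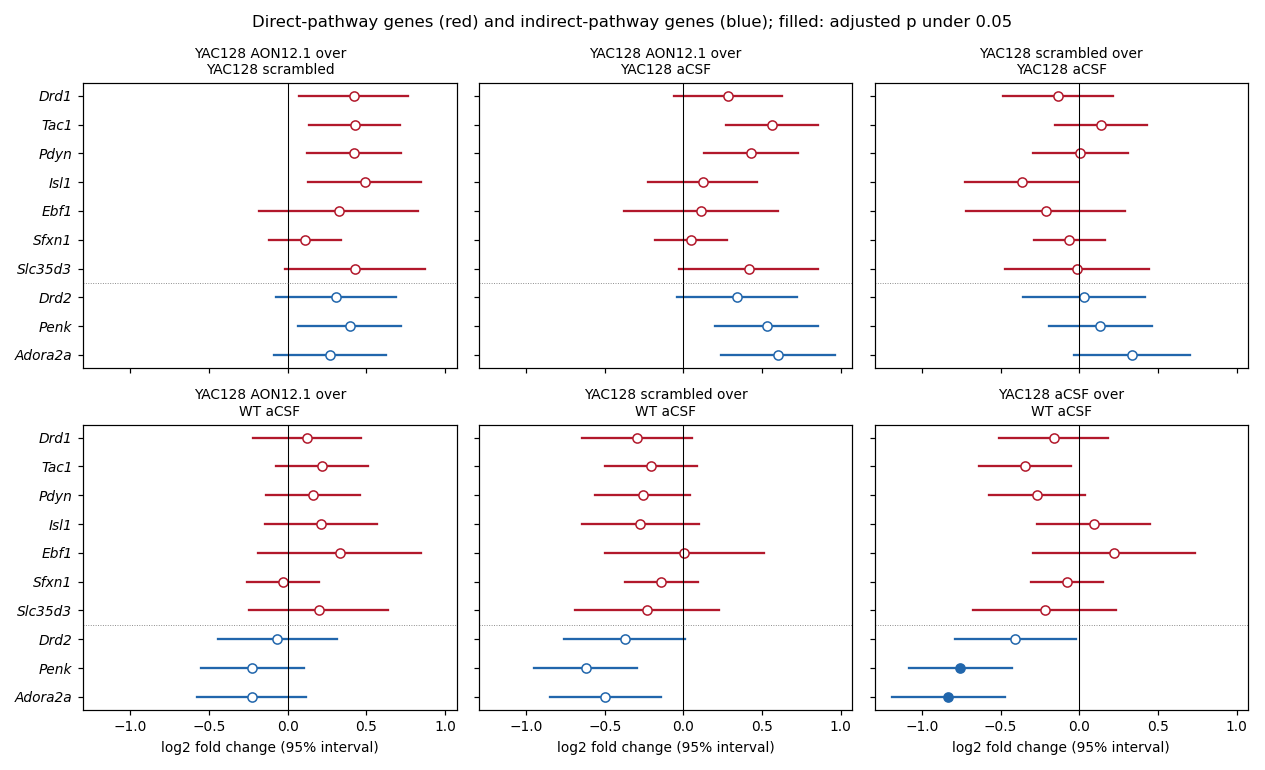
Log2 fold change with its 95% interval (edgeR quasi-likelihood fit) of the 7 tested direct-pathway genes in red and of Drd2, Penk and Adora2a in blue, 1 panel for each of 6 comparisons; filled points have an adjusted p below 0.05. The 2 filled points are Penk and Adora2a in YAC128 aCSF against WT aCSF, and in AON12.1 against scrambled or YAC128 aCSF each red point lies right of 0.

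The effect of genotype was read from YAC128 aCSF against WT aCSF, which had the same vehicle. The direct-pathway genes were little displaced: 5 of 7 were lower in YAC128 aCSF and 2 higher, with a median log2 difference of -0.16, against -0.0036 for all genes, of which 49.3% were higher. None passed the threshold, which 0.0749% of all genes did. Tac1 was lower, at 0.787 of the WT aCSF level (95% interval 0.643 to 0.963, unadjusted p = 0.0213, adjusted p = 0.326 in the edgeR fit), and was the 1 member with an unadjusted p below 0.05, where 5.76% of all genes were lower at that p. Pdyn stood at 0.830 of the WT aCSF level (0.674 to 1.02, adjusted p = 0.459), Slc35d3 at 0.859 (0.627 to 1.18), Drd1 at 0.895 (0.703 to 1.14) and Sfxn1 at 0.948 (0.809 to 1.11), whereas Isl1 was at 1.07 (0.832 to 1.36) and Ebf1 at 1.16 (0.814 to 1.66) times it. In bulk tissue, fewer cells of a type and less RNA per cell cannot be told apart.

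Under the same contrast 5 of the 6 tested indirect-pathway genes were lower, with a median log2 difference of -0.41, where 49.3% of all genes were higher. Of these, 2 passed the threshold, which 0.0749% of all genes did. Penk, the enkephalin precursor, averaged 2488 ± 586 CPM in YAC128 aCSF and 4201 ± 1102 CPM in WT aCSF striatum (SD, n = 8 each), a fall of 0.76 ± 0.16 (SE) on the log2 scale that passed the threshold (adjusted p = 0.0495 in edgeR). Adora2a, the adenosine receptor of these cells, averaged 49.2 ± 11.9 CPM in YAC128 aCSF and 87.7 ± 19.6 CPM in WT aCSF striatum with a log2 difference of -0.83 ± 0.18 (SE) that also passed (adjusted p = 0.0495). Its highest YAC128 aCSF library, at 62.0 CPM, lay just under its lowest WT aCSF library, at 63.0 CPM. Both calls sat at the edge of the threshold: of 32 omissions of 1 library, 12 kept the Penk call and 13 the Adora2a call, and both were lost with the share of reads outside genes in the fit, although the direction held under each alternative. Drd2 averaged 80.0 ± 15.6 CPM in YAC128 aCSF and 107 ± 37.4 CPM in WT aCSF striatum, a log2 difference of -0.41 that did not pass (adjusted p = 0.372).

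Whether the 2 pathways moved apart within a library was tested on ratios, which need no scaling between libraries. The log2 ratio of Tac1 to Penk averaged -2.12 ± 0.11 in AON12.1, -2.16 ± 0.28 in scrambled, -2.16 ± 0.25 in YAC128 aCSF and -2.54 ± 0.24 in WT aCSF striatum (SD, n = 8 each). All 3 YAC128 groups thus stood above WT aCSF, by 0.42 for AON12.1 (exact two-sided permutation p = 0.000777, adjusted p = 0.00932 over 12 tests, 8 of 8 libraries above the WT aCSF median). Scrambled striatum stood above WT aCSF by 0.38 (exact permutation p = 0.0127, adjusted p = 0.0510), and YAC128 aCSF above WT aCSF also by 0.38 (exact permutation p = 0.00886, adjusted p = 0.0510), so neither passed. Ranges overlapped in each of these comparisons. Among the YAC128 groups the ratio was nearly level, with AON12.1 above scrambled by 0.04, AON12.1 above YAC128 aCSF by 0.04 and scrambled against YAC128 aCSF differing by 1.82e-05, each with an exact permutation adjusted p of 0.878 or more. Tac1 and Penk were both higher with AON12.1 than with aCSF in YAC128 striatum, Penk by 1.44-fold (95% interval 1.15 to 1.81, adjusted p = 0.141 in edgeR), and the ratio between them was not detectably different. The lower Penk of YAC128 striatum was known when this pair was chosen, so the ratio against WT aCSF is not independent evidence of it.

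For the receptors no such difference was found. The log2 ratio of Drd1 to Drd2 averaged 0.18 ± 0.38 in AON12.1, 0.05 ± 0.32 in scrambled, 0.19 ± 0.24 in YAC128 aCSF and -0.03 ± 0.34 in WT aCSF striatum (SD, n = 8 each). Its largest difference between groups was 0.22, of YAC128 aCSF over WT aCSF, with an exact permutation p of 0.161 and an adjusted p of 0.483. The spread between animals of 1 group, 0.24 to 0.38, was larger than any difference between groups.

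**Figure D3:**
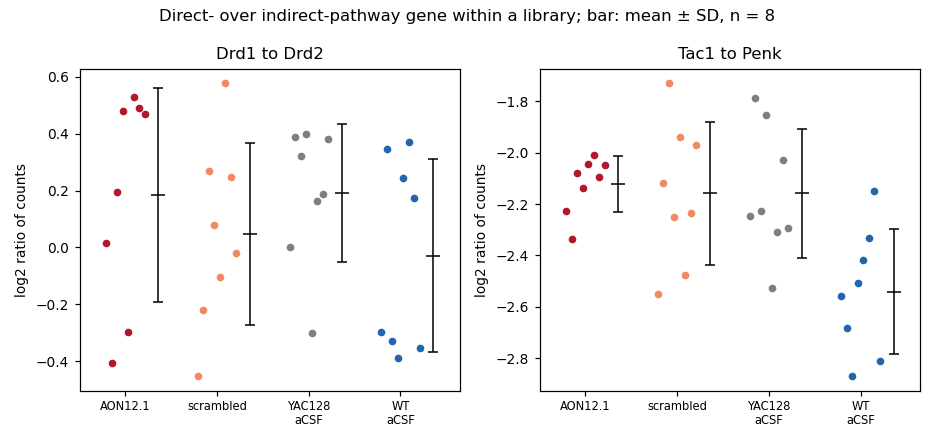
Log2 ratio within each library of Drd1 to Drd2 and of Tac1 to Penk (counts with a pseudocount of 0.5) for the 4 groups; points are animals and bars mean ± SD (n = 8 per group). The 3 YAC128 groups average -2.12 to -2.16 for Tac1 to Penk, against -2.54 for WT aCSF, while the Drd1 to Drd2 ratios overlap throughout.

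The remaining comparisons place the scrambled group and the treated group among the others. Scrambled against YAC128 aCSF, which compares an oligonucleotide with vehicle alone, gave 5 members lower and 2 higher and a median log2 difference of -0.06, against -0.0019 for all genes, of which 49.6% were higher. None passed the threshold, which 0.0843% of all genes did. Isl1 was at 0.776 of the YAC128 aCSF level (95% interval 0.604 to 0.996, unadjusted p = 0.0465, adjusted p = 0.503 in the edgeR fit), the 1 member with an unadjusted p below 0.05, and 4.33% of all genes were lower at that p. Its log2 difference, -0.37, ranged from -0.47 to -0.25 with single libraries left out. All 8 tested cortical markers were higher in scrambled than in YAC128 aCSF striatum, with a median log2 difference of 0.63 and none past the threshold, and their part in the Isl1 value was not tested. Tac1 was at 1.10 (0.899 to 1.35), Pdyn at 1.01 (0.815 to 1.24) and Drd1 at 0.910 (0.715 to 1.16) times the YAC128 aCSF level. Against WT aCSF, AON12.1 striatum had 6 of 7 members higher, as were 51.6% of all genes. None was past the threshold, which 0.562% of all genes passed, and none was higher at an unadjusted p below 0.05, where 7.39% of all genes were. Tac1 was at 1.16 (0.951 to 1.42), Pdyn at 1.12 (0.909 to 1.38) and Drd1 at 1.09 (0.858 to 1.38) times the WT aCSF level. These intervals allow levels from slightly below to clearly above WT aCSF, so equality was not shown. Scrambled striatum against WT aCSF had 6 of 7 members lower, while 51.5% of all genes were higher. None was past the threshold that 0.169% of all genes passed, and none was lower at an unadjusted p below 0.05, where 5.01% of all genes were. Here Drd1 stood at 0.814 (0.638 to 1.04), Pdyn at 0.835 (0.677 to 1.03) and Tac1 at 0.866 (0.708 to 1.06) times the WT aCSF level. With single libraries left out, the log2 differences were -0.38 to -0.21 for Drd1, -0.33 to -0.16 for Pdyn and -0.30 to -0.12 for Tac1. In a test for any difference among the 4 groups, passed by 0.777% of all genes, the lowest adjusted p of a member was 0.121, for Tac1, followed by 0.232 for Pdyn, whereas Penk (0.0199) and Adora2a (0.0382) passed.

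Labels give animals numbers that begin with 18 or 19, and the groups drew on these differently: 2 and 6 AON12.1, 2 and 6 scrambled, 4 and 4 YAC128 aCSF, and 3 and 5 WT aCSF animals. Within the series beginning with 18, the log2 difference of AON12.1 from scrambled was 0.47 for Tac1, 0.38 for Pdyn, 0.30 for Drd1 and 0.23 for Isl1, and within the series beginning with 19 it was 0.41, 0.43, 0.46 and 0.56 in the same gene order. AON12.1 differed from YAC128 aCSF by 0.53 and 0.56 for Tac1, 0.47 and 0.37 for Pdyn, and 0.22 and 0.34 for Drd1 in the series of 18 and 19. For Isl1 that difference was -0.18 in the first and 0.26 in the second. For YAC128 aCSF against WT aCSF, Tac1 differed by -0.28 and -0.36 and Pdyn by -0.36 and -0.18. The Tac1 to Penk ratio of AON12.1 exceeded WT aCSF by 0.42 in the series of 18, among 2 and 3 animals, where no exact test can pass, and by 0.38 in that of 19 (exact permutation, adjusted p = 0.0260). For YAC128 aCSF over WT aCSF that ratio differed by 0.67 in the first and 0.15 in the second (exact permutation, adjusted p = 0.557).

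Genes that sit around the direct-pathway members were described from fixed lists, none of which carries a test of its own. 18 genes shared by both kinds of projection neuron, such as Ppp1r1b (DARPP-32, the phosphatase inhibitor downstream of D1 signalling), were all higher with AON12.1 than with scrambled, 7 of them at an unadjusted p below 0.05, with a median log2 difference of 0.31, where 51.8% of all genes were higher and 3.39% higher at that p. All 18 were also higher with AON12.1 than with YAC128 aCSF, 12 at that p, with a median of 0.42, where 50.0% of all genes were higher and 6.53% higher at that p. Scrambled striatum had 16 of the 18 above YAC128 aCSF, none at that p, with a median of 0.15, where 49.6% of all genes were higher. AON12.1 striatum had 17 above WT aCSF, 3 at that p (7.39% of all genes), with a median of 0.20, where 51.6% of all genes were higher. In YAC128 aCSF 16 of 18 were lower than in WT aCSF, with a median of -0.19, where 49.3% of all genes were higher. None passed the adjusted threshold in these comparisons. Tmem158, a membrane protein abundant in striatum, came closest, at 527 CPM on average in AON12.1 and 370 CPM in YAC128 aCSF striatum (log2 difference 0.51 ± 0.13 SE, adjusted p = 0.0681 in edgeR). The medians of these shared genes, 0.31 and 0.42, can be read beside those of the direct-pathway members in the same comparisons, 0.42 and 0.28, and beside those of the 6 tested indirect-pathway genes, 0.28 and 0.35. Values were thus higher with AON12.1 on lists of both pathways, and nothing was shown to be particular to direct-pathway genes.

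**Figure D4:**
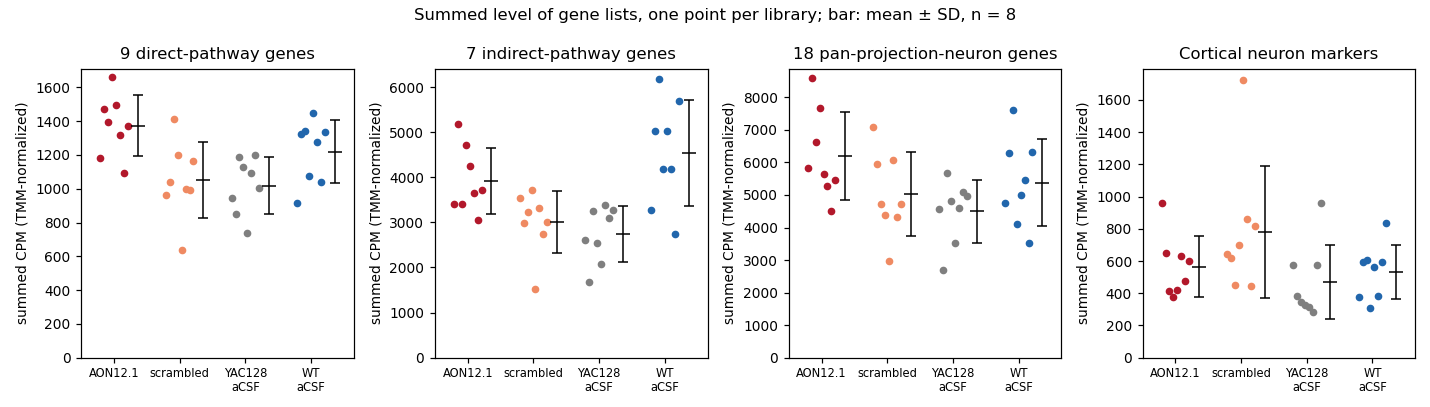
Summed CPM per library of 4 gene lists (direct-pathway members, 7 of the 8 listed indirect-pathway genes, genes shared by projection neurons, and cortical markers); points are animals and bars mean ± SD (n = 8 per group). The 9 direct-pathway genes sum to 1374 ± 180 CPM in AON12.1, 1050 ± 224 in scrambled, 1019 ± 166 in YAC128 aCSF and 1219 ± 186 in WT aCSF striatum.

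Downstream of the D1 receptor, 14 genes of Golf and cAMP signalling split 11 higher and 3 lower with AON12.1 against YAC128 aCSF, 7 of the higher and 1 of the lower at an unadjusted p below 0.05. Of all genes 50.0% were higher in that comparison and 6.53% higher at that p. Against scrambled 9 were higher and 5 lower, where 51.8% of all genes were higher. Gnal, the alpha subunit of Golf, averaged 496 CPM in AON12.1, 428 CPM in scrambled and 367 CPM in YAC128 aCSF striatum. Its log2 difference from YAC128 aCSF was 0.43 ± 0.12 (SE, edgeR adjusted p = 0.114) in AON12.1 and 0.23 ± 0.12 (adjusted p = 0.563) in scrambled striatum. Ppp1r9b, or spinophilin, which anchors protein phosphatase in spines, averaged 667 CPM in AON12.1, 642 CPM in scrambled and 527 CPM in YAC128 aCSF striatum. For Ppp1r9b these differences were 0.34 ± 0.11 (adjusted p = 0.202) and 0.29 ± 0.11 (adjusted p = 0.403). In YAC128 aCSF against WT aCSF 12 of these 14 were lower, among them Ppp1r1b at 850 CPM in YAC128 aCSF and 1202 CPM in WT aCSF striatum (log2 difference -0.50 ± 0.19 SE, adjusted p = 0.289) and Adcy5, the main striatal adenylyl cyclase, at 497.5 CPM in YAC128 aCSF and 631 CPM in WT aCSF striatum (-0.34 ± 0.14 SE, adjusted p = 0.306). None of the 14 passed in any of the 6 comparisons. Ppp1r1b, Pde10a and Rgs9 are also on the list of genes shared by both kinds of projection neuron, so these lists are not separate observations.

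Of 11 receptors for tachykinins, opioid peptides, dopamine and acetylcholine, 5 had enough counts to be tested. Oprk1, the kappa opioid receptor that dynorphin activates, averaged 27.2 CPM in AON12.1, 19.4 CPM in scrambled and 24.5 CPM in both YAC128 aCSF and WT aCSF striatum. Its log2 difference was 0.50 ± 0.18 (SE, edgeR adjusted p = 0.497) for AON12.1 against scrambled and -0.34 ± 0.18 (adjusted p = 0.558) for scrambled against YAC128 aCSF. Tacr1, the substance P receptor, averaged 20.5 CPM in AON12.1, 15.0 CPM in scrambled and 16.9 CPM in YAC128 aCSF striatum. For AON12.1 against scrambled it differed by 0.43 ± 0.23 (SE, adjusted p = 0.709). Scrambled striatum had the lowest mean of the 4 groups for both receptors. 4 of the 5 were higher with AON12.1 than with scrambled, where 51.8% of all genes were higher. Against YAC128 aCSF 4 of 5 were higher with AON12.1, where 50.0% of all genes were, and none passed the threshold in either comparison. Drd2 is among the 5 and was also counted with the indirect-pathway genes. The genes that process neuropeptide precursors stayed near level: of 11 tested, 6 were higher and 5 lower with AON12.1 in either comparison, with median log2 differences of 0.02 and 0.06. Pcsk2, a prohormone convertase, averaged 219 CPM in AON12.1 and 183 CPM in YAC128 aCSF striatum (0.25 ± 0.11 SE, adjusted p = 0.343). Foxp2, a transcription factor enriched in direct-pathway cells, averaged 91.3 CPM in AON12.1, 77.1 CPM in scrambled and 76.9 CPM in YAC128 aCSF striatum, 0.25 higher on the log2 scale in both comparisons (adjusted p = 0.772 and 0.548). Zfp521, also enriched there, averaged 11.7 CPM in AON12.1, 9.85 CPM in scrambled and 12.2 CPM in YAC128 aCSF striatum.

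Within groups, libraries with a high level of 1 of Drd1, Tac1 and Pdyn tended to be high for the others of these. Over 32 libraries, after subtraction of group means, Drd1 went with Tac1 at r = 0.65, with Pdyn at 0.63 and with Slc35d3 at 0.51, and Tac1 with Pdyn at 0.60. Without scrambled library 5 these were 0.57, 0.55, 0.48 and 0.46. Isl1 and Sfxn1 stood aside. For Isl1, r with Tac1 was 0.44 with that library and 0.16 without it, and with Drd1 0.25 and -0.03, while with Sfxn1 it was 0.48 and 0.53. Sfxn1 went with Drd1 at 0.17, with Tac1 at 0.23 and with Pdyn at 0.20, and without that library at 0.12, 0.18 and 0.13. Some members also went with indirect-pathway genes, with r = 0.68 for Drd1 and Drd2, 0.71 for Drd1 and Penk, and 0.79 for Tac1 and Penk, and without scrambled library 5 these were 0.64, 0.65 and 0.72. Isl1 and Sfxn1 did not go with Drd2 over all libraries, at r = -0.06 and -0.10, and for Isl1 this was -0.39 without that library. All of these points share dissection, depth and library preparation, and no p is given. The 5 genes outside the members whose levels most resembled their mean were Kcnab1, a beta subunit of voltage-gated potassium channels, at r = 0.82 (0.73 without scrambled library 5), Gpr83, a G protein-coupled receptor, at 0.79 (0.66), Serpina9, a serine protease inhibitor, at 0.76 (0.61), Cpne5, a calcium-binding copine, at 0.76 (0.74), and Rap1gap, a GTPase-activating protein for Rap1, at 0.74 (0.65).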

How the data were processed

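Striatal RNA of 32 mice was measured, 8 in each group. The deposited files hold raw counts per gene, 1 file a sample. The authors' tools, per the submitters' processing notes, were HTSeq 0.12.4, STAR 2.7.5a, cutadapt 2.10 and FastQC, on GRCm39. The sources used here do not give whether unique molecular identifiers were collapsed or strand was used. The 5 summary lines of each file, reads outside genes among them, were left out of library sizes. Genes were named from GENCODE M21, which holds 52081 of the 55415 features.

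Counts of all 32 libraries entered 1 edgeR 4.0.16 quasi-likelihood fit (R 4.3.3) with TMM scaling, after a filter on low counts (filterByExpr, 10 counts in enough libraries and 15 in total). P-values of 6 comparisons and of a joint test of 4 groups were adjusted by Benjamini-Hochberg over 10679 genes, with 0.05 as threshold. Intervals are 95%. Ratios within a library were tested by exact two-sided permutation of 8 against 8 libraries (smallest possible p 0.0001554), adjusted over 12 tests. The scripts were tested on simulated data. Replicates of a group differed beyond sampling noise (chi-square per degree of freedom 1.86 or more), so each was counted as its own sample. PCR copies could make counts less independent than they appear.

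The members and lists were chosen with earlier results of these data known. Named genes were all members, Drd2, Penk and Adora2a, and from the other lists each called gene and the 2 with the smallest p per comparison, of which the text gives some, with Ppp1r1b, Foxp2 and Zfp521. Alternatives were other scaling, DESeq2 1.42.0, limma-voom (limma 3.58.1), no filter or a stricter one (20 counts in 8 libraries), covariates, fits within animal number series or with only the groups compared, other pseudocounts, omission of each library and, chosen after seeing the data, of 4 libraries together.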

Additional observations from a re-analysis of the deposited data

Results flagged for a closer look

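In groups of 8, a library was marked where its gap to the nearest other, over the group's range, exceeded Dixon's 95% critical value. Of 88 values so examined 12 were marked, and chance marks about 1 in 20. Among the members this was 1 value: Ebf1 was at 31.0 CPM in WT aCSF library 8, against 16.2 CPM in the next highest library of that group. Penk was at 1340 CPM in scrambled library 5, against 2488 CPM in the next lowest, and Adora2a at 128 CPM in AON12.1 library 2, against 83.1 CPM in the next highest. Mouse Htt was at 129.5 CPM in WT aCSF library 1, against 94.4 CPM in the next.

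AON12.1 library 2 had 658934 gene counts, against 934155 in the next lowest of its group. Reads outside genes made up 30.2% of WT aCSF library 1, against 19.2% in the next. Cortical markers summed to 958 CPM in AON12.1 library 1 (next 652), to 1721 CPM in scrambled library 5 (next 864) and to 957.3 CPM in YAC128 aCSF library 8 (next 578). Thalamus and hypothalamus markers summed to 1017 CPM in scrambled library 7 (next 518) and to 3007 CPM in YAC128 aCSF library 2 (next 1270). Choroid plexus markers summed to 3396 CPM in YAC128 aCSF library 4 (next 173).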

How the results depend on the processing

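No paired analysis was possible because the labels give no replicate numbers shared by the groups. Of 1868 recomputed log2 fold changes of the members 63 turned in sign, over 14 of 42 pairs of gene and comparison, none larger than 0.28 in size at first. No member passed the threshold in any comparison, except Tac1 for AON12.1 against YAC128 aCSF, so that 1 member passed under DESeq2, with no filter and with cortical and choroid covariates, and 0 to 1 with single libraries left out. DESeq2 gave no adjusted p for some members. Signs turned as follows, on the log2 scale. For scrambled against YAC128 aCSF, Pdyn was -0.039 with library size only, -0.0063 under the stricter filter, -0.0050 with series as a covariate, -0.068 in series 19 and -0.012 without 4 libraries. Slc35d3 was 0.12 in limma-voom, 0.047 with the share of reads outside genes, 0.072 with series, 0.25 with marker covariates, 0.15 in series 18 and 0.011 in series 19. Ebf1 was 0.022 with marker covariates and 0.16 in series 19, and Sfxn1 0.025, 0.15 and, without 4 libraries, 0.063. Drd2 was -0.013 with library size only, -0.0055 with the share of reads outside genes and -0.20 in series 19, where Penk was -0.017. For YAC128 aCSF against WT aCSF, Isl1 was -0.027 with that share, -0.10 in series 19 and -0.024 without 4 libraries, Ebf1 -0.00073 with marker covariates and -0.13 in series 19, and Sfxn1 0.093 in series 18. For AON12.1 against YAC128 aCSF, Sfxn1 was -0.015 with library size only and -0.29 in series 18, where Isl1 was -0.18 and Foxp2 -0.042. For AON12.1 against WT aCSF, series 18 had Drd1 at -0.043, Drd2 at 0.10 and Adora2a at 0.10, and series 19 Sfxn1 at 0.019. For scrambled against WT aCSF, Ebf1 was -0.0074 in limma-voom, -0.010 with no filter, -0.051 with the share of reads outside genes and -0.23 in series 18, where Isl1 was 0.026. The causes were not tested.

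With single libraries left out, values crossed 0 for Ebf1 in AON12.1 against YAC128 aCSF (-0.041 to 0.24) and scrambled against WT aCSF (-0.20 to 0.18), Sfxn1 in AON12.1 against YAC128 aCSF (-0.00019 to 0.10) and WT aCSF (-0.091 to 0.012), Pdyn (-0.072 to 0.10), Slc35d3 (-0.16 to 0.16) and Drd2 (-0.10 to 0.093) in scrambled against YAC128 aCSF, and Drd2 in AON12.1 against WT aCSF (-0.19 to 0.071).

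The log2 ratio of Drd1 to Drd2 ranged from -0.078 to 0.077 for AON12.1 against YAC128 aCSF and from -0.00055 to 0.15 for scrambled against WT aCSF. That of Tac1 to Penk ranged from -0.015 to 0.090 for AON12.1 against YAC128 aCSF, -0.019 to 0.10 against scrambled and -0.061 to 0.056 for scrambled against YAC128 aCSF. Against WT aCSF it ranged from 0.37 to 0.48 for AON12.1 (adjusted p 0.00373 to 0.0261, still past the threshold), from 0.32 to 0.44 for scrambled (past it without scrambled library 1 or 6 or WT aCSF library 6 or 7) and from 0.33 to 0.44 for YAC128 aCSF (past it without scrambled library 1 or 6, YAC128 aCSF library 5 or WT aCSF library 6 or 7). Drd1 to Drd2 turned to -0.10 for AON12.1 and -0.24 for scrambled against WT aCSF in series 18, to 0.20 and 0.067 against YAC128 aCSF in series 19, and for AON12.1 against YAC128 aCSF to 0.059 without 4 libraries. Tac1 to Penk turned to -0.25 for AON12.1 and -0.31 for scrambled against YAC128 aCSF in series 18, and for the second to -1.95e-05 with a pseudocount of 1. AON12.1 against WT aCSF in series 18, at 0.42, could not pass.

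Numbers of genes called over the whole table, the background of each count, were less stable. For YAC128 aCSF against WT aCSF 8 genes were called, 3 to 142 with a library left out (142 without WT aCSF library 1, 27 without YAC128 aCSF library 8) and 2 to 54 otherwise, 54 with DESeq2. For AON12.1 the counts were 15 against scrambled (10 to 17, otherwise 1 to 20), 33 against YAC128 aCSF (26 to 73, otherwise 2 to 276, 276 in series 18 and 94 with DESeq2) and 60 against WT aCSF (49 to 97, otherwise 3 to 107). For scrambled they were 9 against YAC128 aCSF (3 to 13, otherwise 1 to 20) and 18 against WT aCSF (10 to 27, otherwise 3 to 33). At 6 to 50 Isl1 counts and 7 to 38 Ebf1 counts a library, depth limits what can be seen of both.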

Other observations

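Lists of other striatal cells and compartments, not described above, held few called genes. For AON12.1 against YAC128 aCSF, astrocyte genes S100b, a calcium-binding protein (641 CPM in AON12.1, 485 CPM in YAC128 aCSF, edgeR adjusted p = 0.0402), and Gfap, an intermediate filament (79.8 CPM in AON12.1, 46.3 CPM in YAC128 aCSF, adjusted p = 0.0410), rose. For scrambled against YAC128 aCSF, the microglial complement genes C1qa (114 CPM in scrambled, 74.6 CPM in YAC128 aCSF, adjusted p = 0.0190) and C1qb (265 CPM in scrambled, 178 CPM in YAC128 aCSF, adjusted p = 0.0182) rose. Scrambled striatum averaged 608 CPM for S100b and 64.6 CPM for Gfap, and AON12.1 striatum 90.6 CPM for C1qa and 246 CPM for C1qb. Against WT aCSF, S100b rose in AON12.1 (641 CPM, 456 CPM in WT aCSF, adjusted p = 0.00479) and in scrambled striatum (608 CPM, adjusted p = 0.0498), C1qa rose in scrambled striatum (114 CPM, 76.6 CPM in WT aCSF, adjusted p = 0.0324), and Mobp, a myelin protein, fell in AON12.1 striatum (406 CPM, 617 CPM in WT aCSF, adjusted p = 0.00783). Each of these 8 calls was lost under at least 1 alternative, with the direction kept in all. Of all genes, 0.309% passed for AON12.1 and 0.0843% for scrambled against YAC128 aCSF, and 0.562% and 0.169% against WT aCSF. The astrocyte list did not move as 1. In AON12.1 against WT aCSF, 3 of its 8 genes were higher and 5 lower, 2 each way at an unadjusted p below 0.05. Aldoc was lower there (714 CPM in AON12.1, 881 CPM in WT aCSF, edgeR adjusted p = 0.0514). In scrambled against WT aCSF 4 were higher and 4 lower.

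No gene of the striosome, matrix, cholinergic, GABAergic interneuron, mural and endothelial, cortical, choroid plexus or thalamus and hypothalamus lists passed in any of the 6 comparisons. Against YAC128 aCSF the nearest with AON12.1 were Ttr, transthyretin of the choroid plexus (43.4 CPM in AON12.1, 438 CPM in YAC128 aCSF, adjusted p = 0.0729, with the choroid-rich YAC128 aCSF library 4 included), Tshz1, a striosome gene (120 CPM in AON12.1, 85.7 CPM in YAC128 aCSF, edgeR adjusted p = 0.0744), and Calb2, calretinin of interneurons and of thalamic cells (32.5 CPM in AON12.1, 70.6 CPM in YAC128 aCSF, adjusted p = 0.0783). In scrambled striatum Ttr, Tshz1 and Calb2 averaged 25.4, 118 and 57.5 CPM. Sst, somatostatin of interneurons, averaged 1342 CPM in AON12.1, 1336 CPM in scrambled, 1035 CPM in YAC128 aCSF and 1357 CPM in WT aCSF. Against YAC128 aCSF its edgeR adjusted p was 0.125 for AON12.1 and 0.247 for scrambled, and for YAC128 aCSF against WT aCSF it was 0.150.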
